A study of Mus musculus with 4 samples.

Results

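The accessibility of 10 loci was examined in single long-term hematopoietic stem cells of old mice. The genes, Selp, Alcam, Jam2, Neo1, Gpr183, Clu, Sbspon, Aldh1a1, Sult1a1 and Nupr1, are known from transcriptome studies to be more highly expressed in old than in young stem cells. A locus comprised every peak that overlapped the gene body or the 5000 bp upstream of it in GRCm38. By this rule the 10 loci held 47 of the 93513 peaks in the table, and they were 10 of 21842 protein-coding loci. Of the 47 peaks, 12 lay within 1000 bp of a start of a protein-coding transcript of the gene and are called promoter peaks, and 35 are called other peaks.

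C57BL/6JRj mice provided the LT-HSCs, as long-term hematopoietic stem cells are abbreviated, which were sorted as Lineage-, Sca-1+, c-Kit+, CD34- and CD135-, and assayed by single-cell ATAC-Seq, in which the Tn5 transposase cuts open chromatin. The labels name 4 groups with 1 sample each: Clca3a1_high and Clca3a1_low LT-HSCs of mice aged 22 to 28 months, young LT-HSCs of mice aged 3 to 4 months, and old LT-HSCs of mice aged 22 to 28 months. The first pair of groups was separated with an antibody against CLCA3A1, a surface protein that the study used to trace activity of the coactivator TAZ. For the table analyzed here, 2500 cells from each of 4 mice were pooled per sample, so differences between animals cannot be seen. That table is named in the labels of the Clca3a1_high and Clca3a1_low samples, and its barcodes carry 1 of 2 suffixes, called set 1 and set 2 here. The labels do not say which suffix belongs to which sample. A ratio of set 1 over set 2 therefore describes 2 libraries of old LT-HSCs and carries no group direction, and with 1 library per set no test was possible. Young cells were not analyzed here, so a change with age was not examined.

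With age, blood stem cells increase in number, lose regenerative capacity and shift their output toward myeloid and platelet lineages, and they express a recurrent set of genes that includes many surface and adhesion molecules. The 10 genes cover several of these roles: cell adhesion, receptors, secreted proteins, detoxifying enzymes and a nuclear stress response regulator. Open chromatin at a promoter is often permissive and need not track transcription, whereas accessibility at elements inside or upstream of a gene tends to differ more between cell states.

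The sequences of 9 regions are given first, chosen from the peaks and starts described below. They were read from GRCm38, 5′ to 3′. Capitals mark consensus words of transcription factors, searched on both strands: the PU.1 word GAGGAAGT, the word CCGGAAGT of other ETS factors, CATTCC for TEAD, TGAGTCA for AP-1, TGTGGTT for RUNX, AGATAA for GATA, and a longer word for CTCF. A word on the opposite strand is printed as it reads on the strand shown, so that AGATAA appears as TTATCT. No capitals means that none of these words was present in that stretch. For Selp, the bases before the start (chr1:164115014-164115263, plus strand) and the middle of its most accessible intron peak (chr1:164135354-164135653, plus strand) are shown because they differed between sets in opposite directions.
Selp promoter: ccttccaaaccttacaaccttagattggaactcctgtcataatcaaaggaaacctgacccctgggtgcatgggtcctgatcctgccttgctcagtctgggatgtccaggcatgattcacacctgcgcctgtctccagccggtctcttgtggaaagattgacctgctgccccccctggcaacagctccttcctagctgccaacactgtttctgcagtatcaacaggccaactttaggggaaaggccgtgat
Selp intron peak: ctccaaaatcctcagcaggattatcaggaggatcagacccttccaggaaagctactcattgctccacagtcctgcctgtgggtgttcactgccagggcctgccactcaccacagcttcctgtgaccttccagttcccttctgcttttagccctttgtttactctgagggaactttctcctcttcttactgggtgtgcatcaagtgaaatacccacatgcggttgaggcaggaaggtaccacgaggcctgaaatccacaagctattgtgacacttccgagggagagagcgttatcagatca

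For Nupr1, the stretch before the start (chr7:126625677-126625870, minus strand), which also lies in non-coding exons of longer Nupr1 transcripts, belongs to the promoter with the largest ratio between sets when the promoter peaks of each gene are summed.
Nupr1 promoter: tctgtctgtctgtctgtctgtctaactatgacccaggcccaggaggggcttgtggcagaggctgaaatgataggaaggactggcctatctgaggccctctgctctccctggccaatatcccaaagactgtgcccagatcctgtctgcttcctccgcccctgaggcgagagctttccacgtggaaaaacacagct

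For Neo1, the middles of its 2 most variable intron peaks are shown (chr9:59015199-59015498 and chr9:58941678-58941977, both plus strand, the gene lying on the minus strand).
Neo1 intron peak towards the start: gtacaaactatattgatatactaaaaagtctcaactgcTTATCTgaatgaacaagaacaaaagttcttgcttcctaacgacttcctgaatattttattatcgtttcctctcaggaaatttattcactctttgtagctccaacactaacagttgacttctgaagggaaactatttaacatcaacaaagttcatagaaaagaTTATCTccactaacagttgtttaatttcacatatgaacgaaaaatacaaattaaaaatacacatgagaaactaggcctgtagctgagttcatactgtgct
Neo1 intron peak in the gene body: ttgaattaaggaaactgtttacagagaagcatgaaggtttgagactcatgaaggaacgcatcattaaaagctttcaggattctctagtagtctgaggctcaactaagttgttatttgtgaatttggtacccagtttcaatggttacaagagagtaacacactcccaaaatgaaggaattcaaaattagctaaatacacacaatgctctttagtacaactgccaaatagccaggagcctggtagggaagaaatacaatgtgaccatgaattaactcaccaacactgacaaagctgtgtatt

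For Aldh1a1, the bases before the upstream start (chr19:20492333-20492582), the bases before the downstream start (chr19:20601718-20601960) and the middle of an intron peak (chr19:20614277-20614576), all on the plus strand, contrast a start without a peak, a peak that was equal in both sets and a peak that was not.
Aldh1a1 upstream promoter: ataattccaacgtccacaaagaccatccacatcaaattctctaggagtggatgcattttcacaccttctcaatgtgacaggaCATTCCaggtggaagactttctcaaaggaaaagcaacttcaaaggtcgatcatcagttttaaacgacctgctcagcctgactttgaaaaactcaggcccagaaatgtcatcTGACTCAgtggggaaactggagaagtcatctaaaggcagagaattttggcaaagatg
Aldh1a1 downstream promoter: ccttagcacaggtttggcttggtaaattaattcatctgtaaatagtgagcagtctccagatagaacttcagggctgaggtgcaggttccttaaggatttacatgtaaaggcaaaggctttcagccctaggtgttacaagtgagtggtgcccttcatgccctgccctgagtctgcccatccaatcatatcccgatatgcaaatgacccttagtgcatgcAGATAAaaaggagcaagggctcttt
Aldh1a1 intron peak: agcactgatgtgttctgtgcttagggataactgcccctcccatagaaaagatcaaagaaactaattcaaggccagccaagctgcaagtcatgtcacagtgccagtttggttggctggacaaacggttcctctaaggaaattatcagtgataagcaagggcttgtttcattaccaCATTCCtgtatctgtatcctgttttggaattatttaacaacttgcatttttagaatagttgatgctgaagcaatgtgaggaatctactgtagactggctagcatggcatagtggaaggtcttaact

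For Gpr183, the middle of its most accessible peak (chr14:121955205-121955504, plus strand, the gene lying on the minus strand) is shown.
Gpr183 gene body peak: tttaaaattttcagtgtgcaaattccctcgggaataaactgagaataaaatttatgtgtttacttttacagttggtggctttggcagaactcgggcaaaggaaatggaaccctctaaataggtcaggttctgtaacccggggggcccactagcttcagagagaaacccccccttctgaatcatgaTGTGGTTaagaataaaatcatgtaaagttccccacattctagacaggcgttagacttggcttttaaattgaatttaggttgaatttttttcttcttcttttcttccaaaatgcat

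The table held 818 cells with 13050952 counts in set 1 and 636 cells with 9820094 counts in set 2, and no barcode occurred in both sets. Median counts per cell were 13358.5 and 12755. The 47 peaks contributed 12028 counts. Levels are given as CPM, that is, counts scaled to a set total of 1000000, with exact 95% Poisson intervals, and the log2 ratio of CPM with an exact 95% binomial interval. Counts come mostly in pairs, since a fragment has 2 cut ends (86.7% of the values above 0 at these peaks were even), so all intervals cover counting error only and are too narrow. They do not include the spread between libraries of a single group. The sorted identity was checked on marker loci. All 8 loci of the long-term stem cell list had peaks, with a summed level of 801 CPM in set 1 and 675 CPM in set 2, and no peak was called at Ly6g, Hba-a1, Ppbp, Ms4a1, Cd3e and Cd3g. Other members of the mature lineage lists did have peaks, among them Prtn3 with 89.3 CPM and 90.3 CPM and Pax5 with 65.3 CPM and 66.1 CPM, so accessibility at these marker loci does not by itself separate the stem cells from other lineages.

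Most of the 10 loci were more accessible in set 1. The ratio was above 0 at 9 loci, with an interval above 0 at 7 of them (Clu, Neo1, Nupr1, Sbspon, Aldh1a1, Sult1a1 and Gpr183), and an interval that included 0 at Alcam and Jam2. Selp alone had an interval below 0. With every peak counted at most once in a cell, the intervals of Sult1a1 (-0.05 to 1.17) and Selp (-0.16 to 0.26) included 0. Clu, Neo1, Nupr1 and Sbspon, 4 of 10, were at least 1.5-fold higher in set 1, compared with 5.58% of the 16891 protein-coding loci with at least 20 counts, and none was at least 1.5-fold lower, compared with 4.35%. The median log2 ratio was 0.54 over the 10 loci and 0.0039 over all tested loci, whose quartiles were -0.16 and 0.17. Summed over the 10 loci, the level was 573 CPM in set 1 and 463 CPM in set 2. The 1.5-fold limit fell within the range of the loci. Aldh1a1, Sult1a1 and Gpr183 were just below it at 1.47-fold, 1.45-fold and 1.45-fold, and the nearest locus above it was Sbspon at 1.72-fold.

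**Figure D1:**
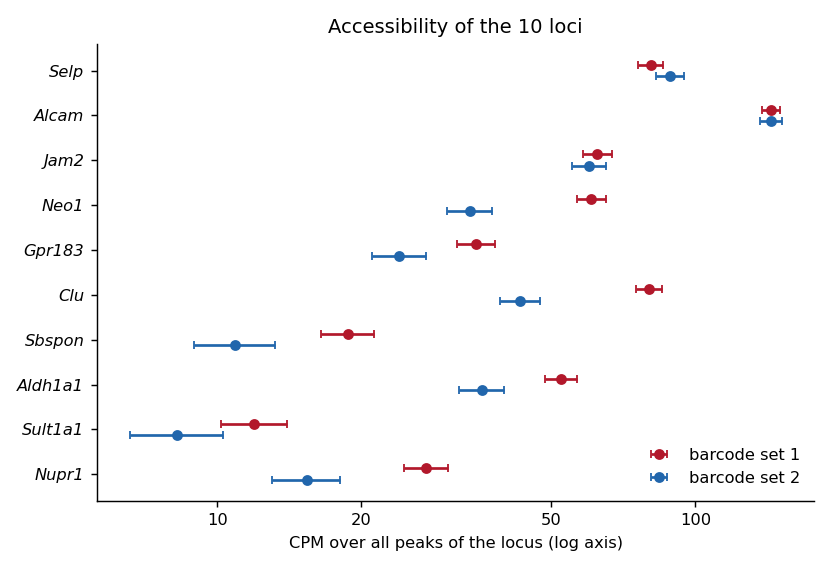
Level of each locus in both barcode sets, as CPM summed over all its peaks on a log axis, with points for the value and bars for the exact 95% Poisson interval (counting error only). At 7 loci the red point of set 1 lies to the right of the blue point of set 2, at Alcam and Jam2 the points nearly coincide, and at Selp set 2 lies to the right.

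Levels of different genes were compared per kilobase of peak, since the loci held between 1275 bp and 7315 bp of peak sequence. In set 1 the order was led by Clu with 20.7 CPM per kb (95% interval 19.5 to 22.0), Alcam with 19.7 (18.8 to 20.6), Selp with 17.0 (16.0 to 18.1) and Aldh1a1 with 16.1 (14.9 to 17.3). Each of these neighbours overlapped the next in its interval except Alcam and Selp. Neo1, Sbspon, Sult1a1 and Jam2 followed between 11.9 and 8.90 CPM per kb, and Nupr1 with 7.10 and Gpr183 with 6.30 were the lowest. In set 2 the order was led by Alcam with 19.7 CPM per kb and Selp with 18.7, whose intervals overlapped, and Clu stood at 11.1 (10.1 to 12.2), level with Aldh1a1 at 11.0 (9.84 to 12.2). Clu thus had a level like that of Alcam in set 1 and a lower one in set 2.

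Of the adhesion genes, Selp encodes P-selectin, the receptor through which activated platelets and endothelium bind leukocytes. The gene spans chr1:164115264-164150026, and its locus had 5 peaks. The locus level was 80.7 CPM (75.9 to 85.7) in set 1 and 88.4 CPM (82.6 to 94.5) in set 2, a log2 ratio of -0.13 (-0.26 to -0.00031). This small difference changed direction, to 0.049, with every peak counted at most once in a cell. It concealed opposite differences within the locus. The promoter peak (chr1:164115032-164115690) had 8.28 CPM in set 1 and 4.07 CPM in set 2, a log2 ratio of 1.02 (0.49 to 1.58). An intron peak 20240 bp from the gene start (chr1:164134512-164136495) held 67.0% of the counts of the locus and was lower in set 1, with 49.1 CPM and 65.8 CPM and a log2 ratio of -0.42 (-0.58 to -0.26). The intervals of these peaks were on opposite sides of 0. The promoter peak made up 10.3% of the counts of the locus in set 1 and 4.61% in set 2. The remaining peaks of Selp, 1 at the upstream edge of the locus and 2 in introns, had ratios between 0.18 and 0.57, each with an interval that included 0.

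Alcam, which encodes the immunoglobulin superfamily adhesion molecule CD166, was the locus with the highest level and the closest agreement between sets. Its level was 144.1 CPM (137.6 to 150.7) in set 1 and 144.0 CPM (136.6 to 151.7) in set 2, a log2 ratio of 0.00060 (-0.10 to 0.10). The promoter peak (chr16:52449826-52454550) was the widest of the 47, at 4725 bp, and held 85.6% of the counts of the locus. It had 123.3 CPM in set 1 and 123.4 CPM in set 2. The interval of the locus ratio reached 0.10 on the log2 scale in either direction. With every peak counted at most once in a cell it was wider, from -0.20 to 0.16. Outside the promoter, the highest peak (chr16:52311011-52311703, in an intron 142717 bp from the gene start) had 11.2 CPM in set 1 and 7.54 CPM in set 2, a log2 ratio of 0.57 (0.16 to 0.99). The other 4 intron peaks of Alcam had between 0.460 and 7.64 CPM in either set, and 3 of them had enough counts for a ratio, with intervals that included 0.

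Jam2, a junctional adhesion molecule of endothelial and other cells, had 10 peaks, the most of the 10 loci. The locus level was 62.4 CPM (58.2 to 66.8) in set 1 and 60.0 CPM (55.2 to 65.0) in set 2, a log2 ratio of 0.06 (-0.10 to 0.21). Its promoter peak (chr16:84773361-84775764) had 25.1 CPM and 26.7 CPM, a log2 ratio of -0.09 (-0.32 to 0.15), and its highest other peak (chr16:84813317-84815149, in an intron) had 17.5 CPM and 18.6 CPM, also with a log2 ratio of -0.09 (-0.37 to 0.20). The main peaks of Jam2 thus did not differ beyond counting error. A small exonic peak (chr16:84810289-84810692) was an exception, with 3.75 CPM from 49 counts in set 1 and 1.22 CPM from 12 counts in set 2, a log2 ratio of 1.62 (0.69 to 2.67). An intron peak (chr16:84801284-84801527) had a log2 ratio of 1.34 (0.17 to 2.69) from 27 and 8 counts.

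Among the receptors, Neo1 encodes neogenin, a receptor for netrins and repulsive guidance molecules that also acts as a co-receptor in BMP signalling. The gene spans chr9:58874687-59036441, with 7 peaks. The locus level was 60.6 CPM (56.5 to 65.0) in set 1 and 33.7 CPM (30.2 to 37.5) in set 2, a log2 ratio of 0.85 (0.66 to 1.04). The difference was larger in the introns than at the promoter. The promoter peak (chr9:59035408-59037363) had 27.2 CPM and 20.2 CPM, a log2 ratio of 0.43 (0.18 to 0.69), whereas the other 6 peaks together had 33.4 CPM and 13.5 CPM, a log2 ratio of 1.30 (1.02 to 1.59), so that the 2 intervals did not overlap. The peak 21092 bp into the gene (chr9:59014993-59015705), whose middle is printed above with its pair of GATA words, had 11.4 CPM (9.66 to 13.4) in set 1 and 1.83 CPM (1.09 to 2.90) in set 2. It was counted in 66 of 818 cells of set 1 and in 10 of 636 cells of set 2, and its log2 ratio of 2.64 (1.93 to 3.43) was the highest of the 43 member peaks with at least 20 counts. A further intron peak 94614 bp from the start (chr9:58941225-58942430) had 10.2 CPM and 3.16 CPM, a log2 ratio of 1.69 (1.12 to 2.30). The first of these peaks made up 18.8% of the counts of Neo1 in set 1 and 5.44% in set 2. Of the other intron peaks, those at 80672 bp and 133054 bp from the start had log2 ratios of 0.40 (-0.13 to 0.94) and 0.62 (-0.07 to 1.34), and 2 had too few counts for a ratio.

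Gpr183 encodes EBI2, the oxysterol receptor that positions B cells and other leukocytes in lymphoid tissue. The gene lies within the larger gene Ubac2 on the opposite strand, so reads at its peaks cannot be assigned to 1 of these genes. The locus level was 34.8 CPM (31.7 to 38.1) in set 1 and 24.0 CPM (21.1 to 27.3) in set 2, a log2 ratio of 0.53 (0.30 to 0.77). Its 2 promoter peaks had ratios of different sign: the peak over the start (chr14:121964972-121965398) had 2.45 CPM and 3.16 CPM, a log2 ratio of -0.36 (-1.12 to 0.40), and the peak just inside the gene (chr14:121963366-121964338) had 7.59 CPM and 5.19 CPM, a log2 ratio of 0.55 (0.05 to 1.06). Most of the difference lay in the gene body. The peak 9840 bp from the gene start (chr14:121954707-121956002), shown above with its RUNX word, had 15.2 CPM in set 1 and 7.33 CPM in set 2, a log2 ratio of 1.06 (0.66 to 1.47). The remaining 2 peaks had log2 ratios of 0.15 and 0.28, with intervals that included 0.

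Of the secreted proteins, Clu encodes clusterin, an extracellular chaperone. The gene spans chr14:65968483-65981547, and the locus level was 80.0 CPM (75.2 to 85.0) in set 1 and 43.0 CPM (39.0 to 47.3) in set 2, a log2 ratio of 0.90 (0.73 to 1.06). This was the largest ratio of the 10 loci, and 97.5% of all tested loci had a lower one. The peaks of Clu differed widely from each other. The peak at the main start (chr14:65968127-65969271) had 55.1 CPM and 30.1 CPM, a log2 ratio of 0.87 (0.67 to 1.07). The peak at a downstream start (chr14:65969956-65971465) had 17.2 CPM and 3.56 CPM, a log2 ratio of 2.27 (1.76 to 2.83), above the interval of the main start. A peak upstream, at -2855 bp from the start (chr14:65965371-65965885), had 6.97 CPM and 2.65 CPM, a log2 ratio of 1.397 (0.75 to 2.09). Elements at both starts and upstream were thus more accessible in set 1.

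An exonic peak in the last part of Clu (chr14:65979350-65980042) went the other way. It had 0.690 CPM (0.315 to 1.31) from 9 counts in set 1 and 6.62 CPM (5.11 to 8.44) from 65 counts in set 2, a log2 ratio of -3.26 (-4.45 to -2.25). The counts came from 5 of 818 cells in set 1 and 34 of 636 cells in set 2, and no cell had more than 4, so the difference did not rest on a single cell. Of the 43 member peaks with at least 20 counts, this peak had the ratio farthest from 0 and was the only one at least 1.5-fold lower in set 1. It made up 0.862% of the counts of Clu in set 1 and 15.4% in set 2.

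Sbspon encodes a secreted protein with somatomedin B and thrombospondin domains. Its locus had 18.8 CPM (16.5 to 21.3) in set 1 and 10.9 CPM (8.93 to 13.2) in set 2, a log2 ratio of 0.78 (0.45 to 1.13). All 3 peaks had a ratio above 0. The promoter peak (chr1:15892382-15893151) had 10.1 CPM and 6.52 CPM, a log2 ratio of 0.63 (0.19 to 1.09). The intron peak 2954 bp from the start (chr1:15889568-15889968) had 3.68 CPM and 1.12 CPM, a log2 ratio of 1.72 (0.75 to 2.81), from 48 and 11 counts. The higher of the intron peaks (chr1:15883293-15883950) had 4.98 CPM and 3.26 CPM, a log2 ratio of 0.61 (-0.02 to 1.27).

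Of the enzymes, Aldh1a1 encodes a cytosolic aldehyde dehydrogenase that oxidises retinaldehyde to retinoic acid and clears reactive aldehydes. The annotated gene spans chr19:20492715-20643465 and has an upstream start at which no peak was called and a downstream start 108970 bp away by the centre of its peak. The locus level was 52.4 CPM (48.6 to 56.5) in set 1 and 35.7 CPM (32.1 to 39.7) in set 2, a log2 ratio of 0.55 (0.36 to 0.74). The promoter did not differ beyond counting error. The promoter peak (chr19:20600844-20602527), which held 53.4% of the counts of the locus, had 24.2 CPM (21.6 to 27.0) and 24.1 CPM (21.2 to 27.4), a log2 ratio of 0.0047 (-0.24 to 0.25). An intron peak 12466 bp beyond the downstream start (chr19:20613931-20614922) had 22.8 CPM (20.2 to 25.5) and 9.37 CPM (7.55 to 11.5), a log2 ratio of 1.28 (0.94 to 1.63). A smaller peak before that start, at -42866 bp (chr19:20558802-20559388), had 5.44 CPM and 2.24 CPM, with the same log2 ratio of 1.28 (0.57 to 2.04). In set 1 the intron peak was thus about as accessible as the promoter, and in set 2 well under it. The intervals of the promoter and of each of the other peaks did not overlap.

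Sult1a1 encodes a phenol sulfotransferase and had a single peak, over its start (chr7:126675640-126676914). Its level was 12.0 CPM (10.2 to 14.0) in set 1 and 8.25 CPM (6.55 to 10.3) in set 2, a log2 ratio of 0.54 (0.14 to 0.94). It was the locus with the fewest counts, 156 and 81. The locus also overlaps the gene Sgf29.

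Nupr1 encodes a small nuclear protein induced by cellular stress. Its locus had 27.4 CPM (24.6 to 30.3) in set 1 and 15.4 CPM (13.02 to 18.0) in set 2, a log2 ratio of 0.83 (0.55 to 1.12). Here the difference lay at the promoter. The promoter peak (chr7:126624774-126625870) had 11.3 CPM (9.59 to 13.3) from 148 counts in set 1 and 2.55 CPM (1.65 to 3.76) from 25 counts in set 2, a 4.45-fold difference and a log2 ratio of 2.16 (1.54 to 2.83). It was counted in 59 of 818 cells and 12 of 636 cells. The highest other peak (chr7:126627965-126630320, in the upstream part of the annotated gene) had 14.0 CPM and 10.9 CPM, a log2 ratio of 0.36 (0.01 to 0.72), below the interval of the promoter peak. The peak upstream of the gene had 1.99 CPM and 1.94 CPM, a log2 ratio of 0.04 (-0.87 to 0.98). The promoter peak made up 41.5% of the counts of Nupr1 in set 1 and 16.6% in set 2.

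**Figure D2:**
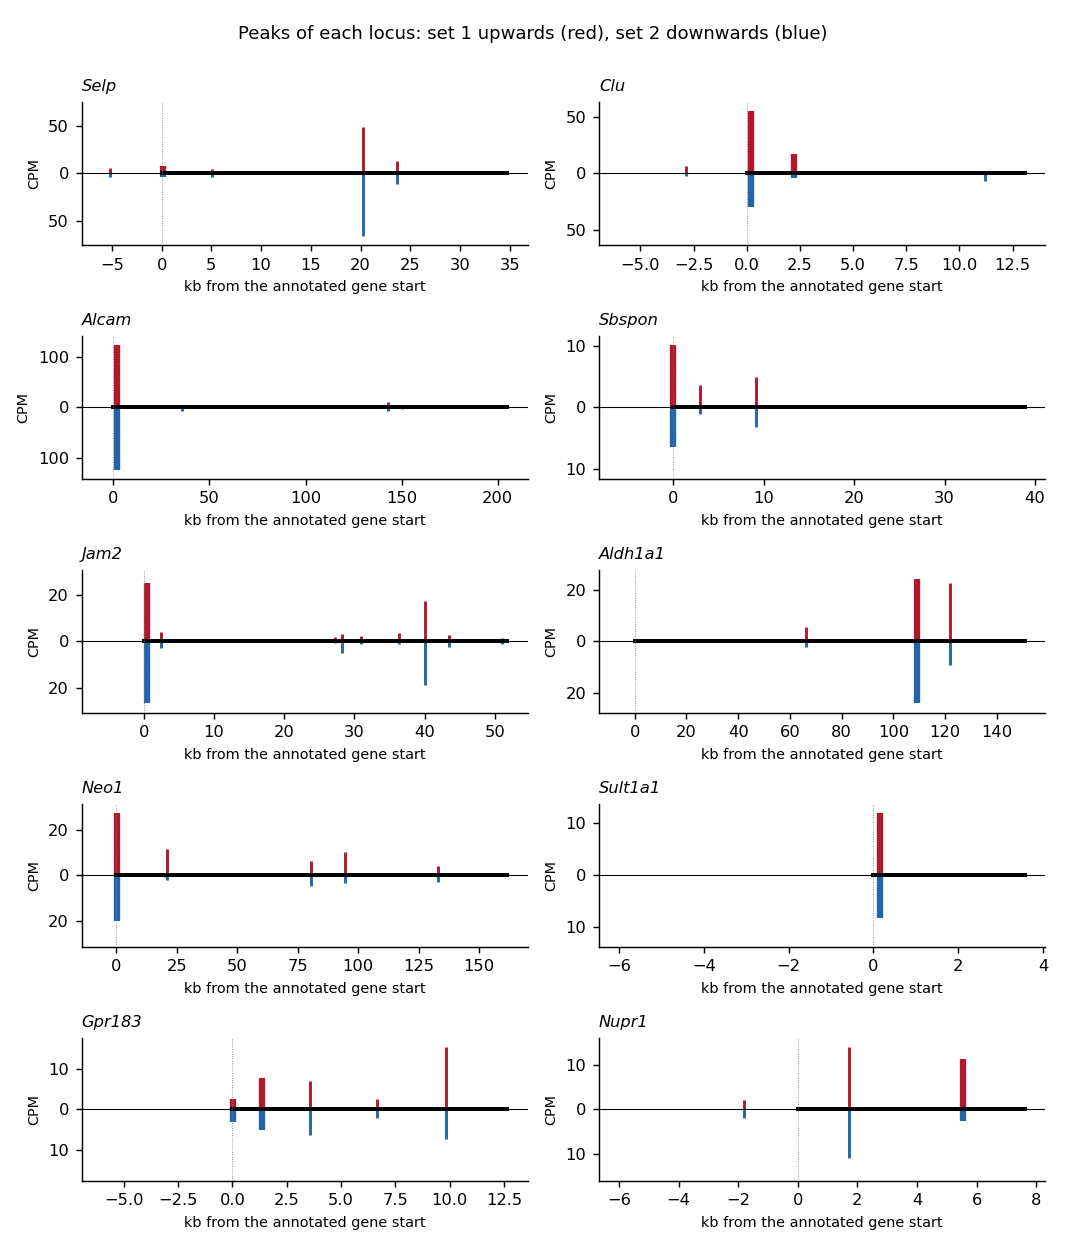
Peaks of each locus by distance of the peak centre from the annotated gene start (kilobases, in the direction of transcription), with the CPM of set 1 drawn upwards in red and of set 2 downwards in blue. The black bar is the gene, thick lines are promoter peaks and thin lines are other peaks, line width does not show peak width, and each panel has its own scale. The tallest line stands at a start at Alcam, Jam2, Neo1, Clu, Sbspon, Aldh1a1 and Sult1a1, and inside the gene at Selp, Gpr183 and Nupr1.

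Promoter and other peaks were then summed separately over each locus. Over promoter peaks, 4 of 10 genes were at least 1.5-fold higher in set 1 (Nupr1 at a log2 ratio of 2.16, Clu at 1.10, Selp at 1.02 and Sbspon at 0.63), compared with 5.72% of 15166 loci with enough promoter counts, and 0 were lower, compared with 4.15%. Over other peaks, 4 of 9 genes were higher (Neo1 at 1.30, Aldh1a1 at 1.28, Sbspon at 0.98 and Gpr183 at 0.66), compared with 13.7% of 12369 loci, and 0 were lower, compared with 13.4%. Sbspon alone was in both groups. The median over the genes was 0.48 for promoter peaks, with 0.0081 over all tested loci, and 0.32 for other peaks, with 0.0021 over all tested loci. By these counts, Nupr1, Clu and Selp passed the limit at the promoter, and Neo1, Aldh1a1 and Gpr183 outside it. Sbspon passed it in both parts, Alcam and Jam2 in neither, and Sult1a1 had its promoter alone, under the limit. This grouping rests on sums and on the limit. Under the limit, the Neo1 promoter had an interval above 0 (0.18 to 0.69) and the other peaks of Selp one below 0 (-0.36 to -0.08). The other peaks of Alcam and Jam2 summed to ratios whose intervals included 0. Single peaks among them did not, at Alcam with 0.57 (0.16 to 0.99) and at Jam2 with 1.62 (0.69 to 2.67). The other peaks of Clu summed to a log2 ratio of -0.27 (-0.70 to 0.15) although its upstream peak was higher in set 1 and its exonic peak lower.

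By single peaks, 43 of the 47 had at least 20 counts. After 1 CPM was added to each value, 13 of these were at least 1.5-fold higher in set 1, compared with 14.8% of the 79625 peaks tested, and 1 was lower, compared with 15.3%. The 13 were 4 of 12 promoter peaks and 9 of 31 other peaks. At least 2-fold differences were found at 8 peaks higher in set 1, compared with 5.20%, and 1 lower, compared with 6.85%. The ratio was above 0 at 34 peaks and below 0 at 9, and the median was 0.41 over the member peaks and 0.020 over all peaks. The 4 peaks under 20 counts, 1 each at Alcam and Jam2 and 2 at Neo1, had at most 1.32 CPM in either set.

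**Figure D3:**
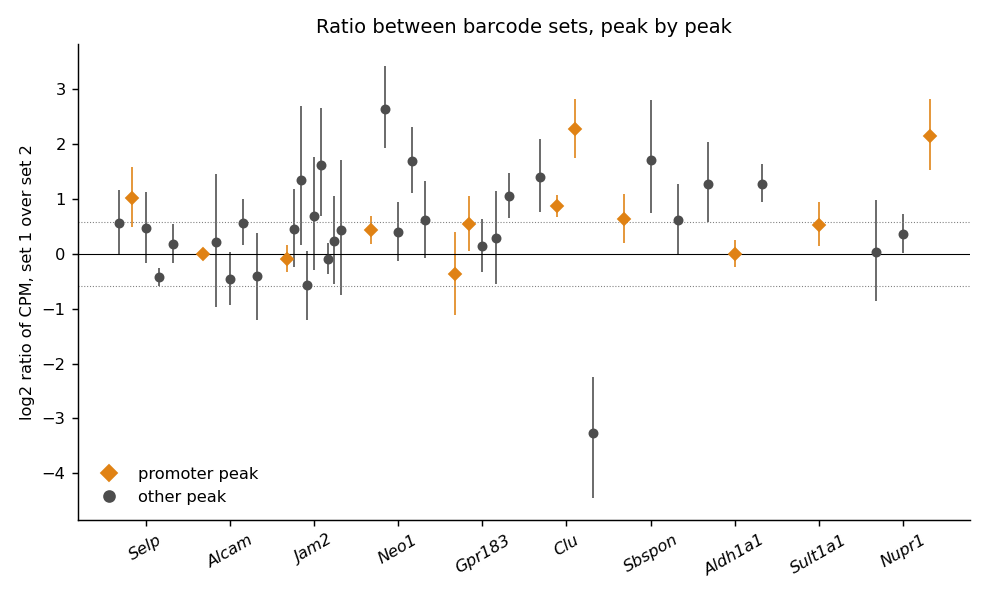
Log2 ratio of CPM (set 1 over set 2, no pseudocount) of the 43 member peaks with at least 20 counts, in order along each gene, with bars for the exact 95% binomial interval (counting error only). Orange diamonds are promoter peaks, grey circles are other peaks, and dotted lines mark 1.5-fold. Within a gene the ratios spread widely, from 2.27 at the downstream start to -3.26 at the exonic peak of Clu, and from 0.0047 at the promoter to 1.28 in the intron of Aldh1a1.

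The share of cells with a count at a locus was examined next, both for all cells and at equal depth. For equal depth, the expected share was computed for cells thinned to 4899 counts, which left out 69 cells of set 1 and 76 cells of set 2. At equal depth, Clu had a count in 26.8% of set 1 cells and 16.4% of set 2 cells, and before thinning in 42.9% (95% Clopper-Pearson interval 39.5 to 46.4%) and 26.4% (23.0 to 30.02%). Neo1 had a count in 19.8% and 13.1% at equal depth, Aldh1a1 in 18.8% and 12.8%, Gpr183 in 12.8% and 8.63%, Nupr1 in 9.19% and 5.37%, Sbspon in 7.18% and 4.56%, and Sult1a1 in 4.403% and 3.01%. At these 7 loci the share was larger in set 1. Of the 7, only Sult1a1 had intervals that overlapped between sets before thinning (6.84 to 10.8% and 4.00 to 7.75%). For equal depth, intervals were built from the expected shares rounded to whole cells. These did not overlap at Clu, Neo1 and Aldh1a1 and overlapped at Gpr183, Nupr1, Sbspon and Sult1a1. They are approximate, since an expected share is not a count of cells. Both kinds of interval take cells as independent, though each set was 1 library of pooled mice. Overlap or its absence therefore describes these libraries and is no test. Alcam, at 42.6% and 43.1%, Jam2, at 21.5% and 21.2%, and Selp, at 25.7% and 28.3%, were close in both sets. The share followed the CPM in direction at each locus except Alcam, where both differences were small.

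A count at a locus is not evidence that the gene is used in that cell. As a background, 16 genes of other tissues such as liver, muscle and skin were measured in the same way. Of these, 7 had no peak, and the other 9 loci had a count in 0.544% (Myh6) to 19.4% (Ckm) of thinned cells, with a median of 5.80%. Alcam (42.8% over both sets), Selp (26.8%), Clu (22.3%) and Jam2 (21.4%) were above this range. Neo1, Aldh1a1, Gpr183, Nupr1 and Sbspon lay between its median and its highest value, and Sult1a1, at 3.81%, lay under the median. The shares were not scaled to the length of peak sequence in a locus, which at Jam2 was 7009 bp. Shares at the 10 loci, including those above the range, are therefore not read as use of the gene.

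**Figure D4:**
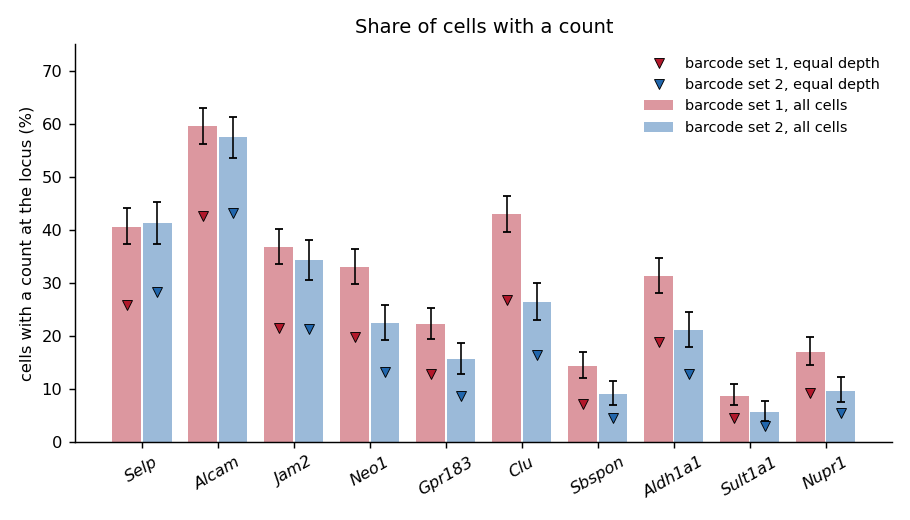
Share of cells with at least 1 count at each locus. Bars show all cells of each set with the exact 95% Clopper-Pearson interval, and triangles show the expected share at 4899 counts per cell. Clu has the widest gap between sets, 42.9% and 26.4% of all cells, and the triangles of Alcam, Jam2 and Selp lie close together in both sets.

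The number of loci with a count was then determined per cell. A thinned cell had a count at 1.89 of the 10 loci on average in set 1 and at 1.56 in set 2. In 1 random draw, 10.4% of 749 set 1 cells and 16.8% of 560 set 2 cells had a count at none of the loci, 29.8% and 18.2% had counts at 3 or more, and the highest number was 6 in set 1 and 5 in set 2. Over the 45 pairs of loci, Pearson's r of the counted or not counted state across the 749 cells of set 1 ranged from -0.08 to 0.11, and across the 560 cells of set 2 from -0.09 to 0.06. Cells of a set share a library, the states are sparse, and these weak values are no finding of shared or separate use.

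The central 300 bp of each peak were searched for the 7 words introduced above, and a match is a description of the letters, not a binding site. RUNX words were present in 10 of 47 member windows (21.3%) and in 11.0% of all 93513 windows. TEAD words were present in 9 (19.1%, compared with 14.1%), GATA words in 7 (14.9%, compared with 12.9%), PU.1 words in 5 (10.6%, compared with 6.68%), AP-1 words in 4 (8.51%, compared with 8.53%), and the CTCF word and the word of other ETS factors in 1 each (2.13%, compared with 4.70% and 1.14%). The largest gap to the share over all peaks was that of RUNX, and 20 of the 47 windows held none of the words, compared with 53.5% of all windows. Of 42 matches, 1 shared bases with another. Of the 9 peaks at least 2-fold apart between sets after 1 CPM was added, the Neo1 peak 21092 bp into the gene held GATA at 2 places, the downstream start of Clu a TEAD and a GATA word, the upstream peak of Clu an AP-1 word, the exonic Jam2 peak a PU.1 and a TEAD word, and the Aldh1a1 intron peak a TEAD word. The Nupr1 promoter, the Neo1 peak at 94614 bp, the Sbspon intron peak at 2954 bp and the exonic Clu peak held none.

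RefSeq promoters (250 bases before the start to the bases just after it, GRCm38.p6) were matched for 7 of the 10 genes, and Aldh1a1 had 2. In the 250 bases before the start alone, TEAD was present in 12.6% of all 32851 RefSeq promoters, GATA in 9.99%, AP-1 in 4.46%, RUNX in 4.396%, other ETS in 2.88%, PU.1 in 2.44% and CTCF in 0.508%. The promoters of these genes were searched over their whole length, so their words and these shares come from unlike windows. Among them, the upstream start of Aldh1a1 held a TEAD and an AP-1 word, its downstream start a GATA word, Sult1a1 a TEAD and a PU.1 word, and the others none. CpG content separated the promoters. The observed over expected CpG ratio was 1.05 at Neo1 and 0.69 at Alcam, above the median of 0.38 over all promoters, and 0.44 at Gpr183. It was 0.25 at Nupr1, 0.20 at Selp, 0.21 and 0.06 at the upstream and downstream starts of Aldh1a1, and 0 at Sult1a1. Among the matched genes, the CpG-rich promoters of Neo1 and Alcam were within 1.5-fold between sets. The CpG-poor promoters comprised both those with the largest ratio (Nupr1) and 1 without a difference (Aldh1a1). Clu, Sbspon and Jam2 were not matched. The central windows of the Sbspon promoter peak and the main Clu start held 27 and 16 CpG, and these peaks were 1.55-fold and 1.83-fold higher in set 1. The Jam2 promoter window held 16 CpG, and its peak did not differ beyond counting error.

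Other genes reported to rise in old stem cells were examined in the same way. Of 40 such loci, 11 were at least 1.5-fold higher in set 1, compared with the 5.58% of all tested loci given above, and 0 were lower, compared with 4.35%, and their median log2 ratio was 0.39, against 0.54 for the 10 loci. The highest were Cavin2, a caveolar coat protein (1.76), and Clca3a1 (1.31), whose product was the sorting antigen, and the lowest were Plek (-0.33) and Cd38 (-0.31). These genes and the 10 loci were thus displaced in the same direction, in libraries for which no replicate exists. Both lists were chosen with earlier results of these data known, so the shared direction is not independent support.

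Markers of other cell types moved with the sets as well. The same 5.58% and 4.35% serve as the background of the counts that follow. Of the 8 long-term stem cell loci, 3 were at least 1.5-fold higher in set 1 and 0 lower (median 0.41). The highest were Slamf1 (0.88) and Procr (0.78), which also belong to the 40 genes above, and the lowest were Fgd5 (-0.33, -0.49 to -0.17), which was lower in set 1, and Hlf (0.10). Of the 5 progenitor loci with enough counts, 0 were higher and 2 were at least 1.5-fold lower in set 1 (median -0.34), Cd34 with 20.2 CPM and 39.4 CPM and Flt3, which encodes CD135, with 76.1 CPM and 144.3 CPM, although the sort had removed cells with either protein on their surface. The highest of that list were Rag1 (0.48, 0.06 to 0.92) and Dntt (-0.18). Rag1 was higher in set 1 by CPM, with an interval that is too narrow as stated above. Its share of cells was 6.85% in set 1 and 6.29% in set 2 before thinning, and 3.27% and 2.54% at equal depth. The summed level of the 6 progenitor markers was 149.95 CPM in set 1 and 242 CPM in set 2, with Il7r at 0 counts in set 1 and 0.305 CPM in set 2. The part of these progenitor and stem cell differences in the ratios of the 10 loci was not tested.

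The megakaryocyte and platelet list, of interest because Selp is a platelet gene, had 1 of 6 loci higher and 0 lower (median 0.26), with a summed level of 413 CPM in set 1 and 364 CPM in set 2. The endothelial list, which bears on Selp and Jam2, had 0 of 5 loci higher and 0 lower, with 97.4 CPM and 96.5 CPM. Of granulocyte and monocyte loci, 0 of 6 were at least 1.5-fold higher in set 1 and 1 was lower. Of erythroid loci, 1 of 4 was higher and 1 lower, and of B cell loci, 0 of 3 were higher and 1 lower. For T cells 0 of 2 loci and for stromal cells 0 of 5 passed the limit in either direction. Granulocyte and monocyte markers summed to 207 CPM and 223 CPM, erythroid to 88.0 CPM and 72.3 CPM, B cell to 81.5 CPM and 89.8 CPM, T cell to 63.1 CPM and 69.1 CPM, and stromal to 356 CPM and 391 CPM. By summed level, each of these lists differed less between sets than the progenitor list.

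**Figure D5:**
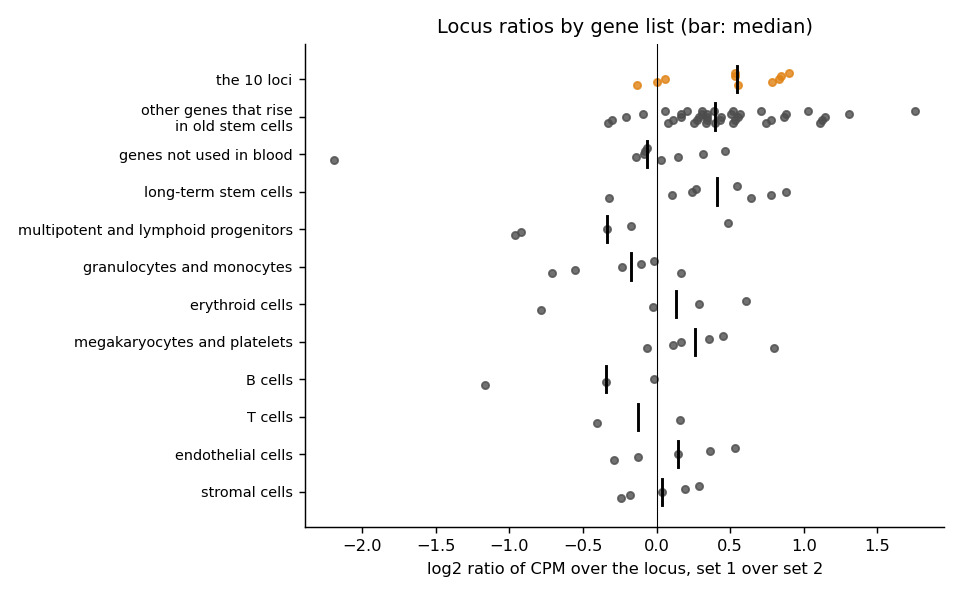
Log2 ratio of CPM over the locus (set 1 over set 2) of each gene with at least 20 counts, by list, with black bars for the list median. The 10 loci, in orange, have a median of 0.54, the other genes that rise in old stem cells 0.39, the long-term stem cell list 0.41 and the progenitor list -0.34.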

How the data were processed

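Per the submitters' processing notes, the authors ran Cell Ranger ATAC 1.2.0 on mm10 (GRCm38) and deposited 2 tables of counts without normalization, with peaks in rows and cell barcodes in columns. Of these, the one with named peaks was used. The peaks of the other carry no positions, so loci could not be found in it. Start positions were taken as 0-based, and gene models came from GENCODE M21. Total counts were 13050952 in set 1 and 9820094 in set 2.

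The members and all gene lists were chosen with earlier results of these data known. All 10 genes and all promoter peaks were described. Other peaks were described where they had the highest CPM of their gene or were at least 2-fold apart between sets, and the 2 highest and 2 lowest ratios were given for the other age-related, long-term stem cell and progenitor lists, the remaining lists being given by counts and sums. Some further peaks were named after their values were seen. Loci or peaks with under 20 counts got no ratio. No cell was removed and no doublet caller was run (57 cells had over 3 times the median count). Equal-depth shares are means over all possible draws of 4899 counts per cell. This was chosen after single draws differed with the random seed. Ratios, intervals and thinning were tested on simulated data. The simulated counts were drawn singly, without the pairing of cut ends. They therefore cannot show how far the intervals of the real counts are too narrow. Calculations used Python 3.11.15, NumPy 2.4.6, SciPy 1.17.1 and pandas 2.3.3. Alternatives were counting each peak once per cell, other scalings, windows, cell filters, count minimums, pseudocounts and fold limits.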

Additional observations from a re-analysis of the deposited data

How the results depend on the processing

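Of 90 locus ratios recomputed under the alternatives, 25 could not move because no peak of the locus changed, and 20 were rescaled alike for all loci. Of the other 45, 44 stayed inside the counting interval of the reported value, as did 55 of 57 ratios of promoter or other peaks. Of the 3 exceptions, 2 came from counting each peak once per cell, which turned the Selp locus from -0.13 to 0.049 and moved its other peaks from -0.22 to -0.05. The same counting left the ratio of Sult1a1 near its reported value but gave it an interval that included 0. A promoter limit of 500 bp left Gpr183 with a promoter ratio of -0.36 in place of 0.27, since only the peak over the start remained. The number of loci at least 1.5-fold higher in set 1, 4 as reported, was 5 with this counting and 6 without cells over 3 times the median count. With a fold of 2 it was 0, and with a fold of 1.4, added after the data were seen, it was 7. The number of member peaks higher in set 1 was 8 in place of 13 with a pseudocount of 5 CPM, 12 with a minimum of 50 counts and 16 with each peak counted once, and the number lower was 2 in place of 1 with no minimum count and also with each peak counted once. Median-of-ratios scaling shifted all ratios by -0.0086 and promoter scaling by 0.00043. Shares of cells rose with depth, and the number of windows with a word rose when whole peaks were searched. No paired analysis was possible because each set was 1 library, and no replicate could be left out. The cause of these changes was not tested. Peaks with few counts had wide intervals, and small differences were not detectable there.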
